A study of Mus musculus with 6 samples.

Results

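The transcriptome of wild-type (WT) mouse embryonic fibroblasts (MEFs) exposed to MASM7, a small molecule activator of the mitofusins, was compared with that of the same cells given vehicle. The members are the 13103 of 55291 listed genes that had 10 or more counts in each of the 4 libraries compared, and they held 99.88% of the counts. MASM7 had been given at 1 μM for 6 h (2 libraries), whereas the labels give no duration for vehicle (2 libraries). A further 2 libraries of the same cells with 20 μM of the mitofusin inhibitor MFI8 for 6 h entered the fit too, where they helped to estimate the spread between libraries and, with the replicate block described below, the difference between replicate numbers, but they are not compared here. All groups were cultures of WT MEFs with no allele or deletion named, poly(A) RNA was sequenced, and how many embryos or lines the cells came from is not given in the sources used here. Libraries of each group are numbered 1 and 2, and the labels do not say what libraries with the same number share. Comparisons were therefore made over all libraries and also within pair 1 (MASM7 replicate 1 against vehicle replicate 1) and pair 2 (MASM7 replicate 2 against vehicle replicate 2). Since nothing says that replicates were separate cultures, p-values measure only the spread between these libraries, which may be technical.

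Mitofusins are GTPases of the outer mitochondrial membrane, MFN1 and MFN2 in mammals. They tether neighbouring mitochondria and fuse their outer membranes, after which OPA1 fuses the inner membranes, and DRP1-driven fission opposes them. Mitochondrial shape and function reach the nucleus through several known routes, among them the integrated stress response, calcium and metabolic signals, while in cultured fibroblasts much of the transcriptome also follows adhesion, actin tension and growth factors through the regulators SRF with its coactivator MRTF-A, YAP and TGF-β.

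The vehicle libraries had 22924037 and 25068530 counts and the MASM7 libraries 29881032 and 30611501, a depth 1.26 times as high on average. Fibroblast markers summed to 10300 and 8170 CPM (counts scaled to the depth of the library) with vehicle and to 10400 and 9240 CPM with MASM7. Of the 10 fibroblast markers, 9 were members, and Thy1, a surface protein of many fibroblasts, had only 6 to 19 counts per library. Of the 7 macrophage and leukocyte markers, Adgre1 and Tyrobp were at 0 in all 4 libraries, and the list summed to 25.7 to 28.5 CPM, mostly Cd14 and Csf1r. Endothelial markers summed to at most 0.596 CPM, epithelial markers to at most 0.881 CPM and pluripotency markers to at most 0.0329 CPM. Neural markers summed to 430 to 472 CPM, mostly Nes at 381 to 416 CPM, with Sox2 and Sox10 at 0. Muscle markers summed to 2.98 and 2.74 CPM with vehicle and to 4.17 and 4.86 CPM with MASM7, nearly all of it Tnnt2, with Myod1 and Myog at 0. In bulk RNA, a change in the number of cells of a type and a change of RNA per cell cannot be told apart.

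MASM7 changed the transcriptome little in size. The median absolute difference in log2 CPM over the 13103 genes was 0.0845 in pair 1 and 0.138 in pair 2, against 0.114 between the vehicle libraries and 0.0942 between the MASM7 libraries. In edgeR's quasi-likelihood test, with p-values adjusted by Benjamini-Hochberg over all 13103 genes, 0 genes (0%) had an adjusted p under 0.05, and the smallest was 0.431. At an unadjusted p under 0.05 there were 1395 genes, which is 10.6% of those tested, and the DESeq2 Wald test called 2 genes. Both MASM7 libraries lay above both vehicle libraries for 2871 genes (21.9%) and below them for 2878 genes (22.0%). An exact permutation test of 2 libraries against 2 cannot go below 0.333, so none was made for single genes.

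Once the model held the replicate number as an additive block, 635 genes had an adjusted p under 0.05, of which 408 were higher with MASM7 (3.11% of those tested) and 227 lower (1.73%). The words rose, fell and called below refer to these genes and this test (edgeR quasi-likelihood with the replicate block), fold changes are MASM7 against vehicle from that fit, and without the block none of them was called. With the same block the DESeq2 Wald test called 187 genes, and limma on the authors' TPM values called 0. The called changes were small, with a median log2 fold change of 0.21 for the genes that rose and of -0.21 for those that fell. Only 4 of the rises and 6 of the falls reached 1 on the log2 scale, and 13 rises and 23 falls reached 0.5. The called genes that rose had a median level of 101 CPM and those that fell of 72.0 CPM, against 28.5 CPM over all tested genes. Both pairs moved the same way for 406 of the 408 rises and 226 of the 227 falls, which a call in a fit blocked on the pair favours. Of all tested genes, 64.4% had the same sign in both pairs, 32.3% being higher in both and 32.1% lower in both. Counts for the lists below stand against these shares and against the 3.11% and 1.73% of all tested genes called. The 4 libraries did not overlap for 361 of the rises and 209 of the falls. The split of the calls depended on scaling: library size alone gave 317 higher and 295 lower genes, so that 51.8% of the calls were higher in place of 64.3%, although the median log2 fold change over all tested genes moved only from 0.0003 to -0.0113.

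The number of calls rested on the replicate 2 libraries. Without vehicle replicate 2 the fit with the block called 13 genes and without MASM7 replicate 2 it called 31, whereas it called 610 without vehicle replicate 1 and 1248 without MASM7 replicate 1. Of the 137 called genes taken by the rule on named genes, 90 kept their log2 fold change within 1.5 times in each of these fits and 47 did not in at least 1, of which 26 without vehicle replicate 2, 29 without MASM7 replicate 2, 15 without vehicle replicate 1 and 11 without MASM7 replicate 1, some in more than 1 fit. Their values in those fits are given beside them below. A log2 difference of at least 0.5 in both pairs was seen for 47 genes higher with MASM7 (0.359%) and 90 genes lower (0.687%). In these fits the group left with 1 library takes its replicate difference from the other group and from MFI8. No member of the gene lists below was called without vehicle replicate 2 except 2 contractile genes, 1 matrix protein and 1 matrix protease, and without MASM7 replicate 2 the lists with calls were contractile genes (2), matrix proteases (2), and with 1 each other matrix proteins, collagens, hypoxia genes, NRF2 targets, the aryl hydrocarbon receptor list and immediate early genes. Within a single pair, 321 genes were higher and 363 lower by that much in pair 1, and 311 and 427 in pair 2.

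**Figure D1:**
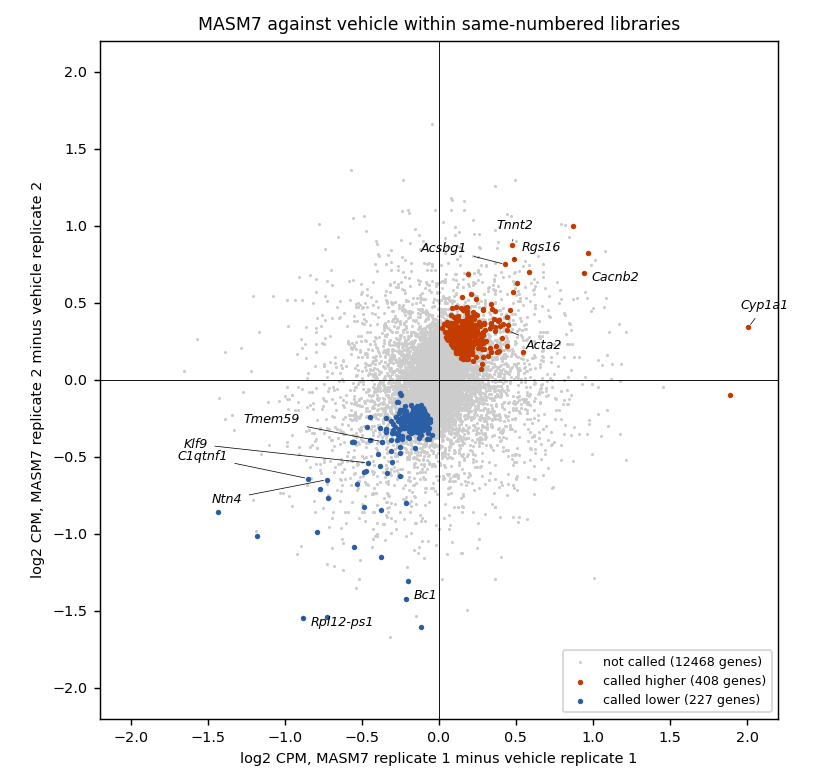
Difference in log2 CPM between MASM7 and vehicle within replicate 1 (horizontal axis) and within replicate 2 (vertical axis) for each of the 13103 genes, with genes called with the replicate block in red (408 higher) and blue (227 lower) and all others in grey. Called genes lie along the diagonal in the upper right and lower left, most of them close to the origin, and 4 genes fall outside the axes, which end at 2.2.

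Calls followed the GC content of the transcript. GC content was known for 12862 genes (98.2%), with a median of 49.5% over all tested genes (interquartile range 44.8 to 54.3). It was 56.9% for the genes that rose (54.0 to 59.2) and 41.8% for those that fell (39.3 to 45.3). In genes of at most 40% GC the median log2 difference was -0.053 in pair 1 and -0.189 in pair 2, and in genes above 60% GC it was 0.066 and 0.227. Both pairs thus had the same order, with the larger slope in pair 2. Of the genes at most 40% GC, 0.123% were called higher and 8.34% lower, and of those above 60% GC, 14.5% were called higher and 0.198% lower. With offsets per library for GC content and transcript length beside the block, 165 genes were called, 113 higher (0.862%) and 52 lower (0.397%). Among these were 72 of the 408 rises and 32 of the 227 falls, and 47 genes were also called by DESeq2 with the block, 38 higher and 9 lower. The part that GC content plays in single changes was not tested, so what the calls became under the offsets is given below for the lists that had any.

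**Figure D2:**
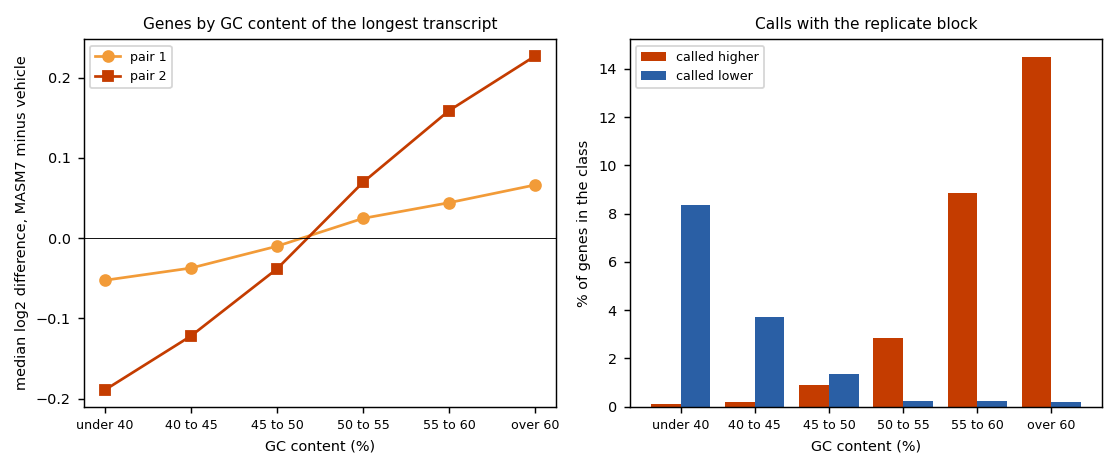
Genes in classes of transcript GC content (horizontal axis, %). The left panel gives the median log2 difference between MASM7 and vehicle in pair 1 and pair 2, which climbs from -0.053 and -0.189 in the lowest class to 0.066 and 0.227 in the highest. The right panel gives the percentage of each class called higher or lower with the replicate block, with 8.34% of the lowest class called lower and 14.5% of the highest class called higher.

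Some calls rested on no single library, being made in each of the 4 fits without 1 library, a selection made after the values were seen. Among them were Acta2, Tgfb1i1, Thbs1, Ppbp, Tmem59 and the unnamed gene models Gm43333, Gm10557 and Gm10443. Acta2 and Tgfb1i1 belong to the contractile list described below and Thbs1 to the matrix proteins, and the counts of those lists are not independent of these genes.

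Acta2, smooth muscle actin and the usual sign of a contractile fibroblast (chromosome 19:34241090-34255590 of GRCm38), had 175 and 310 CPM with vehicle and 238 and 387 CPM with MASM7. The groups overlapped because the vehicle libraries themselves differed, but the level was higher with MASM7 within each pair. It rose by 29.9%, a log2 fold change of 0.38 (standard error 0.046, edgeR adjusted p = 2.28e-05), which stayed between 0.305 and 0.459 with any of the 4 libraries left out and was 0.37 with the GC offsets. Tgfb1i1 encodes HIC-5, a focal adhesion protein related to paxillin (chromosome 7:128246812-128255699). It had 48.7 and 54.4 CPM with vehicle and 63.9 and 71.2 CPM with MASM7, so both MASM7 libraries lay above both vehicle libraries. Its log2 fold change was 0.39 (standard error 0.056, edgeR adjusted p = 0.000267), with the same size in pair 1 and pair 2.

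Thbs1, the matricellular protein thrombospondin 1 (chromosome 2:118111876-118127133), had 400 and 457 CPM with vehicle and 494 and 543 CPM with MASM7, without overlap. Its log2 fold change was 0.28 both without and with the GC offsets (standard error 0.043, edgeR adjusted p = 0.000589). Ppbp, a CXC chemokine made in quantity by platelets (chromosome 5:90768518-90770063), had 158 and 262 CPM with vehicle and 215 and 335 CPM with MASM7. Like Acta2 it was higher in the replicate 2 library of each group, and it rose within both pairs, with a log2 fold change of 0.40 (standard error 0.049, edgeR adjusted p = 2.41e-05). Tmem59, a membrane protein of the Golgi and late endosomes linked to autophagy (chromosome 4:107178399-107200996), was the one named gene of this group that fell. It had 727 and 681 CPM with vehicle and 564 and 515 CPM with MASM7, a fall of 0.39 on the log2 scale (standard error 0.044, edgeR adjusted p = 9.18e-06), and the fall lay between 0.35 and 0.42 in the fits without 1 library. Tmem59 had the smallest p of the named genes with the block, and no library of one group reached the other.

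Contractile genes and targets of SRF, the serum response factor that drives actin and myosin genes, had the largest share of rises among the functional lists in the fit with the block, though not with the GC offsets. The lists were written with earlier results of these data known, so this rank is not independent of the values. Of 25 tested members of the contractile list 12 rose and 0 fell, where 3.11% of all tested genes rose and 1.73% fell. In both pairs 19 were higher and 0 lower, where 32.3% of all tested genes were higher and 32.1% lower. The list's median log2 fold change was 0.15, against 0.0003 over all tested genes. The medians were 0.10 in pair 1 and 0.14 in pair 2. The list had a median GC content of 52.5%, its median was 0.084 with the GC offsets, and 3 members were called with them. Of its members 9 were called without vehicle replicate 1, 12 without MASM7 replicate 1, 2 without vehicle replicate 2 and 2 without MASM7 replicate 2. Zyx, the focal adhesion and stress fibre protein zyxin, had 584 and 520 CPM with vehicle and 662 and 678 CPM with MASM7. Its log2 fold change was 0.28 (standard error 0.047, edgeR adjusted p = 0.00109), with 0.18 in pair 1 and 0.38 in pair 2. Myl9, the regulatory light chain of non-muscle and smooth muscle myosin, rose from 4.17 and 5.45 CPM to 5.97 and 8.45 CPM, the largest log2 fold change of the list at 0.58 (standard error 0.141, edgeR adjusted p = 0.0175), or 0.49 with the offsets (adjusted p = 0.0755).

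Srf itself had 81.4 and 84.8 CPM with vehicle and 88.9 and 105 CPM with MASM7, and rose by 0.22 on the log2 scale (standard error 0.054, edgeR adjusted p = 0.0177). Its value with the GC offsets was 0.05 (adjusted p = 0.663), so this rise was not called with the offsets, which cover GC content and transcript length together. Mrtfa, the actin-sensing coactivator of SRF, is not a member of the contractile list and was named for its small p without the block. It had 89.9 and 91.0 CPM with vehicle and 106 and 113 CPM with MASM7, without overlap. It rose by 0.28 (standard error 0.050, edgeR adjusted p = 0.00259) and was at 0.16 with the offsets (adjusted p = 0.0648). Dbn1, the actin-bundling protein drebrin, is likewise outside the list and was named for the same reason. It rose from 56.4 and 56.7 CPM to 67.6 and 73.5 CPM (log2 fold change 0.32, edgeR adjusted p = 0.00211) and passed with the offsets at 0.19. Members of the list that did not pass include the tropomyosins Tpm1 at 0.0030, Tpm2 at 0.056 and Tpm4 at 0.029, the caldesmon gene Cald1 at 0.027 and Fhl2 at -0.0083 on the log2 scale. Srf was at 0.13 without MASM7 replicate 2.

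**Figure D3:**
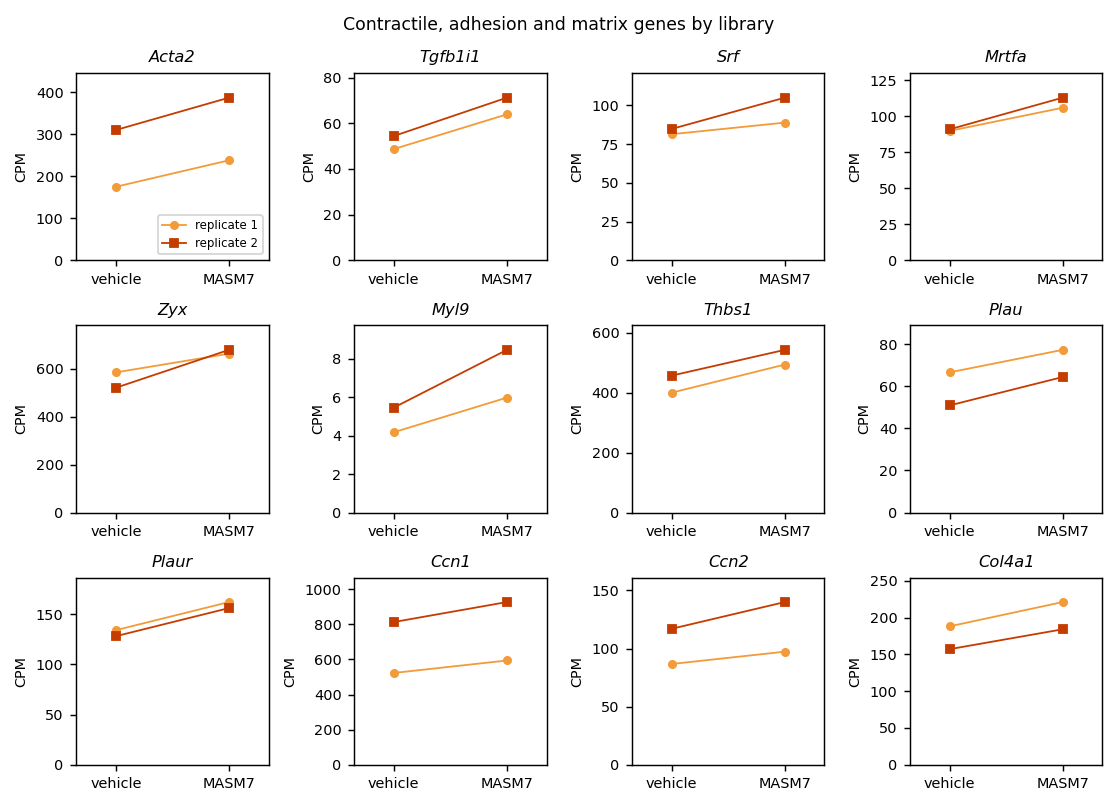
CPM of 12 contractile, adhesion and matrix genes with vehicle and with MASM7, with a line joining the libraries that share a replicate number (circles for replicate 1, squares for replicate 2) and each vertical axis starting at 0. Every line climbs, while for Acta2, Plau, Ccn1, Ccn2 and Col4a1 the libraries with vehicle differ enough for the groups to overlap.

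SRF binds the CArG box, so its strict form was sought in promoters as a description of these genes, a search chosen after the data were seen. A RefSeq promoter of GRCm38.p6, from 250 bases before to 50 after the start, was found for 9381 of the tested genes. A CArG box on either strand was present in 123 of these promoters (1.31%), in 9 of 317 promoters of genes that rose (2.84%) and in 0 of 156 promoters of genes that fell. The 123 genes had a median log2 fold change of 0.041, with 53 higher and 29 lower in both pairs, where 32.3% of all tested genes were higher and 32.1% lower in both. The stretches around the box are given for 6 of the 9 genes that rose, a choice made after the values were seen. They are contractile genes, Srf itself, Dusp5 of the ERK feedback list and Ppbp, which is in no list. Each reads 5′ to 3′ on the gene's strand with the box in capitals, and all boxes lie before the start.
Actg1: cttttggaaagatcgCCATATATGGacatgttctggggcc
Cnn2: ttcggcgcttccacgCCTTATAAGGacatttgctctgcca
Myl9: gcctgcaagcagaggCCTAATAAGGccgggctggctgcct
Srf: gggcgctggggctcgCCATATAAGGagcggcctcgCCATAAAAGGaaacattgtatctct
Dusp5: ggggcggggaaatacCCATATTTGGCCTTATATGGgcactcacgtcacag
Ppbp: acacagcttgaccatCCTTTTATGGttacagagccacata
The stretch of Actg1, cytoplasmic γ-actin, is chr11:120348561-120348600 (minus strand), and its box begins 90 bases before the start. That of Cnn2, calponin 2, is chr10:79988529-79988568 (plus strand, 56 bases before). That of Myl9 is chr2:156775288-156775327 (plus strand, 161 bases before). Srf holds a pair of boxes, 82 and 62 bases before its start, in chr17:46556200-46556259 (minus strand). Dusp5, a nuclear phosphatase that dephosphorylates ERK, holds adjoining boxes 82 and 72 bases before its start in chr19:53529048-53529097 (plus strand), and that of Ppbp is 87 bases before its start in chr5:90768416-90768455 (plus strand). Actg1 had 1280 and 1290 CPM with vehicle and 1370 and 1510 CPM with MASM7, a log2 fold change of 0.17 (edgeR adjusted p = 0.0335). Cnn2 had 378 and 381 CPM with vehicle and 414 and 433 CPM with MASM7, a log2 fold change of 0.16 (edgeR adjusted p = 0.0318). The other 3 genes that rose and hold a box are Cyp1a1, Rasa4 and Rpl10a. A match of letters is a description and does not show that SRF binds there.

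Some matrix genes rose as well. Of 28 tested matrix proteins and crosslinkers other than collagens, 7 rose and 0 fell, with a median log2 fold change of 0.088, or 0.043 with the GC offsets, under which 2 were called. The count was 6 without vehicle replicate 1, 9 without MASM7 replicate 1, and 1 without either replicate 2 library. Fbln2, the elastic fibre protein fibulin 2, rose from 274 and 294 CPM to 302 and 365 CPM, a log2 fold change of 0.23 (edgeR adjusted p = 0.00589), and was at 0.13 with the offsets (adjusted p = 0.0505). Tnc, tenascin C, an adhesion-modulating glycoprotein, had 223 and 165 CPM with vehicle and 253 and 193 CPM with MASM7 and rose by 0.20 (edgeR adjusted p = 0.0088), with overlap between the groups. Hspg2, the basement membrane proteoglycan perlecan, rose by 0.21 (adjusted p = 0.0122) but had 0.05 with the offsets (adjusted p = 0.579). Serpinh1, the collagen chaperone HSP47, rose by 0.19 (adjusted p = 0.0137) and was at 0.09 with the offsets (adjusted p = 0.142). The other 21 members were not called, and 8 of the 28 had a negative fold change. Fbln2 was at 0.15 and Hspg2 at 0.12 without MASM7 replicate 2.

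Of 24 tested collagen genes 4 rose and 0 fell, with a median of 0.072 on the log2 scale, and this list had a high median GC content of 56.8%. With the GC offsets its median was -0.012 and 1 member was called. Col4a1 and Col4a2, the paired chains of basement membrane collagen IV, rose together. Col4a1 had 188 and 157 CPM with vehicle and 221 and 184 CPM with MASM7, a log2 fold change of 0.23 in each pair (standard error 0.043, edgeR adjusted p = 0.00365), and Col4a2 rose by 0.18 (adjusted p = 0.02). Col7a1, the anchoring fibril collagen, rose from 31 and 27.5 CPM to 39.4 and 37.7 CPM (log2 fold change 0.40, edgeR adjusted p = 0.00109) and remained called with the offsets at 0.26, where Col4a1 was at 0.13 (adjusted p = 0.0541) and Col4a2 at 0.05. Col6a3 rose by 0.27 (adjusted p = 0.0105) with libraries that differed widely within a group, 56.3 and 30.1 CPM with vehicle and 66.7 and 37.3 CPM with MASM7. Without vehicle replicate 2 the collagen list had 0 calls.

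Among matrix proteases and their inhibitors, 3 of 19 tested genes rose and 0 fell, with a median of 0.063 on the log2 scale, and 3 were called with the GC offsets. Plau and Plaur, among the 3 that rose, are the protease and the receptor of urokinase signalling. Plaur, the urokinase receptor (chromosome 7:24462484-24475968), had 134 and 128 CPM with vehicle and 162 and 156 CPM with MASM7. It rose by 21.5% with nearly the same log2 difference in pair 1 (0.27) and pair 2 (0.29), and its edgeR adjusted p was 0.000909. Plau, urokinase, had 66.6 and 50.9 CPM with vehicle and 77.3 and 64.4 CPM with MASM7, a log2 fold change of 0.27 (edgeR adjusted p = 0.0088). Adam12, a metalloprotease of activated fibroblasts, rose by 0.27 (adjusted p = 0.00808), more in pair 1 (0.37) than in pair 2 (0.18). The count for this list was 2 without vehicle replicate 1, 3 without MASM7 replicate 1, 2 without MASM7 replicate 2 and 1 without vehicle replicate 2. Plat, the tissue-type activator, stood at -0.20 on the log2 scale and was not called.

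Targets of YAP and TEAD, the effectors of the Hippo pathway, included 3 rises and 0 falls among 19 tested genes, with a median of 0.069 on the log2 scale and 0.026 with the GC offsets. Ccn1, a matricellular protein and standard YAP target, had 523 and 813 CPM with vehicle and 594 and 927 CPM with MASM7, a log2 fold change of 0.18 in pair 1 and 0.19 in pair 2 (edgeR adjusted p = 0.0149 with the block), and was called with the offsets at 0.13. Ccn2, connective tissue growth factor, rose by 0.22 (adjusted p = 0.0109) and by 0.21 with the offsets. Tead4, a DNA-binding partner of YAP, rose by 0.21 (adjusted p = 0.0461) and was at 0.09 with the offsets (adjusted p = 0.494). Both Ccn genes were higher in the replicate 2 than in the replicate 1 library of each group, as was Acta2. None of the 3 rises remained called without vehicle replicate 2, nor without MASM7 replicate 2.

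Of 21 tested targets and ligands of TGF-β and BMP, 2 rose and 1 fell, where 3.11% of all tested genes rose and 1.73% fell. The list's median was 0.045, or -0.0058 with the GC offsets. Without either replicate 2 library 0 members were called. The rises were Ltbp2, a latent TGF-β binding protein, from 53.5 and 54.7 CPM to 63.1 and 70.0 CPM (log2 fold change 0.30, edgeR adjusted p = 0.00589), and Pmepa1, a feedback inhibitor of TGF-β signalling, by 0.27 (adjusted p = 0.0104). The fall was Id2, an inhibitor of basic helix-loop-helix factors that BMP induces, from 69.9 and 88.6 CPM to 62.1 and 76.8 CPM (log2 fold change -0.19, edgeR adjusted p = 0.036). None of the 3 was called with the offsets, which gave 0.19 for Ltbp2, 0.20 for Pmepa1 and -0.14 for Id2.

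Tubulin genes showed 3 rises and 0 falls among 11 tested, and all 11 had a positive fold change, with a median of 0.11 that became 0.0097 with the GC offsets at a median GC content of 55.2%. Tubb3, the neuronal β-tubulin that fibroblasts also make, rose from 25.1 and 26.1 CPM to 33.4 and 33.5 CPM (log2 fold change 0.39, edgeR adjusted p = 0.00325). Tubb6 rose by 0.19 (adjusted p = 0.0169) and Tubb2b by 0.26 (adjusted p = 0.0404). None of the 3 was called with the offsets, at 0.27, 0.09 and 0.22 in the same order, and the list had 0 calls without either replicate 2 library. Tubb6 was at 0.12 without MASM7 replicate 2. Tubb2b was at 0.16 without MASM7 replicate 1.

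Genes of the integrated stress response, in which phosphorylated eIF2α raises ATF4 and ATF4 raises amino acid supply, showed 9 rises and 0 falls among 28 tested genes. A positive fold change was seen for 27 of the 28, and 23 were higher in both pairs, where 32.3% of all tested genes were. The list's medians were 0.11 in pair 1, 0.22 in pair 2 and 0.17 in the fit. The list's median GC content was 52.8%, its median was 0.093 with the GC offsets, and 1 member was called with them. It had 8 calls without vehicle replicate 1, all higher, and 10 higher and 1 lower without MASM7 replicate 1, but 0 without either replicate 2 library. Serine and one-carbon enzymes were among the rises. Phgdh, which opens serine synthesis, rose from 339 and 345 CPM to 378 and 415 CPM (log2 fold change 0.21, edgeR adjusted p = 0.00835), and Shmt2, the mitochondrial serine hydroxymethyltransferase, from 466 and 469 CPM to 517 and 559 CPM (log2 fold change 0.20, edgeR adjusted p = 0.0105). Sesn2, a leucine sensor that restrains mTORC1, rose from 25.7 and 30.4 CPM to 32.4 and 38.3 CPM, with 0.33 in each pair (edgeR adjusted p = 0.00714). Eif4ebp1, a translation repressor that ATF4 induces, rose by 0.22 (adjusted p = 0.0185) and was the member still called with the offsets, where Phgdh was at 0.10, Shmt2 at 0.09 and Sesn2 at 0.21. Eif4ebp1 was at 0.12 without vehicle replicate 2, 0.33 without MASM7 replicate 1 and 0.11 without MASM7 replicate 2.

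Chac1, which degrades glutathione and is a sensitive ATF4 target, had 13.2 and 14.6 CPM with vehicle and 15 and 23.5 CPM with MASM7. Its rise of 0.46 on the log2 scale (edgeR adjusted p = 0.0177) was 0.19 in pair 1 and 0.69 in pair 2, and the value was 0.109 without vehicle replicate 2 and 0.75 without vehicle replicate 1. With the offsets it was 0.34 (adjusted p = 0.139). Other well-known members did not pass, among them the factor Atf4 itself. Atf4 had a log2 fold change of 0.13 with adjusted p = 0.0737, Trib3 of 0.39 with adjusted p = 0.0661, and Asns, asparagine synthetase, of 0.064 with adjusted p = 0.406.

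In the unfolded protein response of the endoplasmic reticulum, 6 of 26 tested genes rose and 0 fell, with a median of 0.051, or 0.058 with the GC offsets, under which 3 were called. Sdf2l1, a cochaperone of BiP, rose from 13.7 and 13.8 CPM to 17.3 and 19.4 CPM (log2 fold change 0.42, edgeR adjusted p = 0.0103). Manf, a secreted chaperone-like factor, rose by 0.18 (adjusted p = 0.022) and passed with the offsets at 0.15. The other named rises were Creld2 by 0.20 (adjusted p = 0.0269), the chaperone Hyou1 by 0.16 (adjusted p = 0.029) and the ubiquitin ligase Syvn1 by 0.22 (adjusted p = 0.037). Of these 5, Manf alone passed with the offsets, with Sdf2l1 at 0.33 (adjusted p = 0.0505), Creld2 at 0.12, Hyou1 at 0.12 and Syvn1 at 0.12. Without either replicate 2 library 0 members were called. Among cytosolic heat shock genes, 2 of 31 rose (Fkbp4 by 0.16, Hsf1 by 0.17) and 1 fell (Hspa4l, by 0.16), with a median of -0.012. With the offsets these were at 0.07, 0.11 and -0.06, and 0 members were called. Syvn1 was at 0.34 without vehicle replicate 1, 0.088 without vehicle replicate 2, 0.33 without MASM7 replicate 1 and 0.10 without MASM7 replicate 2. Hsf1 was at 0.11 without vehicle replicate 2 and 0.095 without MASM7 replicate 2. Hspa4l was at -0.26 without MASM7 replicate 1 and -0.065 without MASM7 replicate 2. Creld2 was at 0.13 without MASM7 replicate 2.

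Aminoacyl-tRNA synthetase genes showed 4 rises and 0 falls among 23 tested, 15 being higher and 1 lower in both pairs, with a median of 0.072. Farsa, a subunit of the phenylalanine enzyme, rose by 0.18 (adjusted p = 0.0237) and Mars1, the methionine enzyme, by 0.16 (adjusted p = 0.0328), and both passed with the GC offsets, at 0.18 and 0.16. Vars, the valine enzyme, rose by 0.16 (adjusted p = 0.0383) but was at 0.03 with the offsets. Sars, the serine enzyme, rose by 0.15 (adjusted p = 0.0385) and was at 0.09 with the offsets (adjusted p = 0.176). The list had 0 calls without either replicate 2 library. Vars was at 0.25 without vehicle replicate 1 and 0.079 without vehicle replicate 2. Farsa was at 0.12 and Mars1 at 0.11 without vehicle replicate 2.

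Of 76 tested cytosolic ribosomal protein genes 10 rose and 0 fell. Their median log2 difference was 0.0027 in pair 1 and 0.12 in pair 2, a difference that was not tested. In both pairs 39 were higher and 8 lower, where 32.3% of all tested genes were higher and 32.1% lower. With the GC offsets 11 were called higher and 1 lower. The count was 13 without vehicle replicate 1, 27 without MASM7 replicate 1 and 0 without either replicate 2 library. Rps15, a small subunit protein, had 822 and 741 CPM with vehicle and 919 and 964 CPM with MASM7, a log2 fold change of 0.27 (edgeR adjusted p = 0.00236). Rps28 rose from 229 and 209 CPM to 253 and 261 CPM, by 0.23 both without and with the offsets (edgeR adjusted p = 0.00648). Rpl34, Rpl27 and Rpl29 of the large subunit rose by 0.20, 0.21 and 0.22, of which Rpl27 alone passed with the offsets. These genes have many near-identical processed copies, so their counts depend on how shared reads were assigned. Rps15 was at 0.16, Rps28 at 0.14 and Rpl29 at 0.12 without MASM7 replicate 2. Rpl27 was at 0.13 without vehicle replicate 2.

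Nucleolar factors that make ribosomes showed 9 rises and 0 falls among 40 tested genes, with a median of 0.092 and 0.064 with the GC offsets, under which 2 were called. In pair 1, 36 of the 40 were higher with MASM7, and in pair 2, 25 of the 40. Rrp9, a component of the snoRNP that processes the early pre-rRNA, rose from 119 and 126 CPM to 141 and 154 CPM (log2 fold change 0.27, edgeR adjusted p = 0.0016). Bop1 rose by 0.22 (adjusted p = 0.00589), Noc2l by 0.21 (adjusted p = 0.00816), Ddx56 by 0.19 (adjusted p = 0.0144) and Rrp12 by 0.16 (adjusted p = 0.0267). None of these 5 was called with the offsets, under which they lay between 0.08 (Rrp12) and 0.13 (Rrp9). Again 0 members were called without either replicate 2 library. Among 42 tested translation factors 0 were called, with a median of 0.012, or 0.021 and 1 call with the offsets, and the difference from the nucleolar list was not tested. The initiation factors with the smallest p there were Eif5 at -0.13 (adjusted p = 0.0885) and Eif5b at -0.13 (adjusted p = 0.0934).

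The mRNAs of the mitofusins were not called. Mfn1 (chromosome 3:32529465-32579239) had 111 and 109 CPM with vehicle and 102 and 100 CPM with MASM7, a log2 fold change of -0.12 (standard error 0.048, edgeR adjusted p = 0.138). Both MASM7 libraries lay below both vehicle libraries, with -0.12 in each pair. Mfn2 (chromosome 4:147873599-147904704) had 119 and 119 CPM with vehicle and 118 and 122 CPM with MASM7, a log2 fold change of 0.01 (standard error 0.047, edgeR adjusted p = 0.929), whose sign changed with library size scaling and with the GC offsets. Of 13 tested genes of mitochondrial fusion 1 rose and 1 fell, with 3 higher and 9 lower in both pairs and a median of -0.088, or -0.017 with the offsets at a median GC content of 44.7%. Stoml2, an inner membrane scaffold that protects OPA1, rose from 139 and 139 CPM to 156 and 162 CPM (log2 fold change 0.19, edgeR adjusted p = 0.017). Slc25a46, an outer membrane protein that binds the fusion machinery, fell from 64.1 and 64.9 CPM to 55.4 and 56.3 CPM (log2 fold change -0.21, edgeR adjusted p = 0.0278). Neither was called with the offsets, at 0.12 and -0.11. Of 11 tested fission genes 1 rose, Inf2, a formin at contacts between the endoplasmic reticulum and mitochondria, by 0.17 (adjusted p = 0.0279), with a list median of 0.054. With the offsets Inf2 was at 0.04 (adjusted p = 0.699) and the median at 0.020.

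Mitochondrial import and chaperone genes showed 4 rises and 1 fall among 37 tested, with a median of 0.025. Timm13, a small chaperone of the intermembrane space, rose from 122 and 111 CPM to 135 and 144 CPM (log2 fold change 0.26, edgeR adjusted p = 0.00475). Tomm40, the pore of the outer membrane translocase, rose from 137 and 129 CPM to 149 and 168 CPM (log2 fold change 0.25, edgeR adjusted p = 0.0088, with 0.11 in pair 1 and 0.38 in pair 2), and both passed with the GC offsets. The matrix proteases Clpp and Lonp1 rose by 0.22 (adjusted p = 0.0365) and 0.15 (adjusted p = 0.0487). Timm8a1, a partner of Timm13 in that chaperone complex, fell from 22.0 and 22.7 CPM to 18.3 and 18.1 CPM (log2 fold change -0.29, edgeR adjusted p = 0.0338). The calls of Clpp (0.13), Lonp1 (0.06) and Timm8a1 (-0.29, adjusted p = 0.0559) were lost with the offsets. Of 77 tested mitochondrial ribosomal protein genes 3 rose and 0 fell, with a median of 0.034, where 3.11% of all tested genes rose. These were Mrps18b by 0.23 (adjusted p = 0.0208), Mrpl12 by 0.18 (adjusted p = 0.0265) and Mrpl14 by 0.24 (adjusted p = 0.0334). With the offsets Mrps18b was still called at 0.19, whereas Mrpl12 was at 0.09 (adjusted p = 0.195) and Mrpl14 at 0.17 (adjusted p = 0.191). In the tricarboxylic acid cycle 1 of 23 tested genes rose, Mdh2, by 0.16 (adjusted p = 0.0481), with a median of 0.0064, and it was at 0.13 with the offsets (adjusted p = 0.0767). Without either replicate 2 library all 3 of these lists had 0 calls, and the mitochondrial ribosomal proteins had 10 without MASM7 replicate 1. Tomm40 was at 0.37 without MASM7 replicate 1 and 0.12 without MASM7 replicate 2. Clpp was at 0.35 without vehicle replicate 1, 0.096 without vehicle replicate 2 and 0.14 without MASM7 replicate 2. Mdh2 was at 0.096 without vehicle replicate 2, 0.26 without MASM7 replicate 1 and 0.063 without MASM7 replicate 2. Timm13 was at 0.17 and Mrpl12 at 0.10 without MASM7 replicate 2.

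Lipid genes are set here beside all tested genes, of which 3.11% rose and 1.73% fell. Of 25 tested genes of fatty acid oxidation and PPAR signalling 2 rose and 0 fell, with a median of -0.033. Ppard, a fatty acid-sensing nuclear receptor, rose from 79.2 and 64.2 CPM to 92.6 and 84.5 CPM (log2 fold change 0.31, edgeR adjusted p = 0.00211), and Plin2, a lipid droplet coat protein and PPAR target, by 0.20 (adjusted p = 0.0189). Both passed with the GC offsets, at 0.26 and 0.15. Of 17 tested genes of fatty acid synthesis 2 rose and 1 fell: Fasn, fatty acid synthase, by 0.19 (adjusted p = 0.0182), its regulator Srebf1 by 0.20 (adjusted p = 0.0293), and the desaturase gene Scd2, which fell by 0.17 (adjusted p = 0.0296), with a median of 0.013. With the offsets Fasn was at 0.07 (adjusted p = 0.297) and Srebf1 at 0.09 (adjusted p = 0.358), so neither rise was called, while Scd2 kept its fall at -0.17. Of 24 tested sterol genes 1 fell, Hmgcs1, an early enzyme of the mevalonate pathway, from 152 and 125 CPM to 126 and 113 CPM (log2 fold change -0.21, edgeR adjusted p = 0.0282). It was at -0.15 with the offsets (adjusted p = 0.207). The sterol list had a median of -0.13 in pair 1 and of 0.036 in pair 2. Of 21 tested glycolytic genes none was called, with a median of 0.069 and 0.011 with the offsets. Aldoa stood at 0.13 (adjusted p = 0.113) and Eno1 at 0.10 (adjusted p = 0.184). Hmgcs1 was at -0.09 without vehicle replicate 1 and -0.33 without vehicle replicate 2. Srebf1 was at 0.12 without MASM7 replicate 2. Scd2 was at -0.093 without vehicle replicate 1.

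Hypoxia genes had 1 rise and 1 fall among 17 tested, Ndrg1 by 0.26 (adjusted p = 0.0487), with overlap between the groups, and the histone demethylase gene Kdm3a, which fell by 0.20 (adjusted p = 0.0461), with a median of -0.031. Neither was called with the GC offsets, at 0.25 and -0.15. Of 24 tested NRF2 targets 1 rose and 1 fell, with a median of 0.014, where 3.11% of all tested genes rose and 1.73% fell. Hmox1, heme oxygenase 1, rose from 35.1 and 41.4 CPM to 45 and 54.4 CPM (log2 fold change 0.38, edgeR adjusted p = 0.0136), and Prdx1, a peroxiredoxin, fell by 0.14 (adjusted p = 0.0488). Neither passed with the GC offsets, with Hmox1 at 0.32 and Prdx1 at -0.07. No gene of 12 tested for metal handling was called, with a median of 0.019, Fth1 at 0.12 (adjusted p = 0.115) and Mt1 at 0.28 (adjusted p = 0.158). Ndrg1 was at 0.16 without vehicle replicate 2, 0.093 without MASM7 replicate 1 and 0.41 without MASM7 replicate 2. Hmox1 was at 0.21 without vehicle replicate 2 and 0.24 without MASM7 replicate 1.

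The aryl hydrocarbon receptor list held the largest named rise beside a fall of the receptor itself, with 1 rise and 1 fall among 8 tested genes and a median of -0.11. Cyp1a1, the classic target of the receptor (chromosome 9:57687928-57703824), had 16 and 46 counts with vehicle and 90 and 71 counts with MASM7, or 0.702 and 1.83 CPM against 3.05 and 2.34 CPM. The groups did not overlap, but the log2 difference was 2.01 in pair 1 and 0.34 in pair 2. Its log2 fold change was 1.11 (standard error 0.328, edgeR adjusted p = 0.0467), and was as large with the offsets, at 1.09, though not called there (adjusted p = 0.132). The call was also lost in edgeR with DESeq2 size factors (adjusted p = 0.0568), library size alone (adjusted p = 0.0503) and filterByExpr (adjusted p = 0.0585). Libraries with MFI8 had 2 and 23 counts of Cyp1a1. The fold change of Cyp1a1 also moved with single libraries. It was 0.59 without vehicle replicate 1, 1.89 without vehicle replicate 2, 0.241 without MASM7 replicate 1 and 2.37 without MASM7 replicate 2. Ahr, the receptor gene, had 63.4 and 48.7 CPM with vehicle and 54.2 and 40.2 CPM with MASM7. It fell by 0.25 on the log2 scale (edgeR adjusted p = 0.0146), by a similar size in both pairs, and passed with the offsets at -0.21.

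Of 24 tested feedback genes of the ERK pathway 4 rose and 1 fell, with a median of 0.089 and 0.023 with the GC offsets. Etv4, an ETS factor that ERK signalling induces, rose from 94.8 and 85 CPM to 112 and 109 CPM (log2 fold change 0.30, edgeR adjusted p = 0.00181) and was called with the offsets at 0.17. The phosphatase genes Dusp7, Dusp4 and Dusp5 rose by 0.26 (adjusted p = 0.0178), 0.31 (adjusted p = 0.0279) and 0.19 (adjusted p = 0.0467), and Spred1, an inhibitor of the pathway, fell by 0.17 (adjusted p = 0.0357). With the offsets these 4 were at 0.15, 0.22, 0.09 and -0.07 in the same order and were not called. Without either replicate 2 library 0 members were called. Of 28 tested immediate early genes 2 rose, Ier3 by 0.27 (adjusted p = 0.00922) and Fosl1 by 0.18 (adjusted p = 0.0209), with a median of 0.092 that became 0.00072 with the offsets, under which neither was called (Ier3 at 0.21, Fosl1 at 0.05). Dusp7 was at 0.42 without vehicle replicate 1 and 0.12 without vehicle replicate 2. Dusp5 was at 0.33 without vehicle replicate 1, 0.061 without vehicle replicate 2, 0.31 without MASM7 replicate 1 and 0.086 without MASM7 replicate 2. Fosl1 was at 0.11 without MASM7 replicate 2.

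Inflammatory lists held 1 call, where 3.11% of all tested genes rose and 1.73% fell. The chemokine gene Ppbp, given above as a rise, is in none of them. Of 22 tested NF-κB targets and cytokines 1 rose, Tnfaip3, the feedback deubiquitinase A20, from 60.8 and 69.5 CPM to 70.5 and 78.0 CPM (log2 fold change 0.19, edgeR adjusted p = 0.0385), with a list median of 0.040, and it was called with the offsets at 0.23. Of 21 tested interferon-stimulated genes none was called. Their median was -0.086, with 3 higher and 11 lower in both pairs and -0.079 with the GC offsets, and the smallest p belonged to Ddx58, which encodes the RNA sensor RIG-I, at -0.23 (adjusted p = 0.0565) and Parp9 at -0.43 (adjusted p = 0.0618). Wnt, Notch and Hedgehog targets had 0 calls among 15 tested and a median of 0.029, with Notch1 at 0.58 (adjusted p = 0.195) and Hes1 at -0.31 (adjusted p = 0.239). Of 26 tested p53 targets 1 rose, Sesn2, and the median was 0.079. With the offsets that median was 0.035 and Sesn2 stood at 0.21 (adjusted p = 0.11).

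Mitotic genes had 1 rise and 5 falls among 32 tested and a median of -0.070, or -0.043 with the GC offsets, under which 0 were called at a median GC content of 46.4%. The median was -0.024 in pair 1 and -0.14 in pair 2, and the calls numbered 7 lower without vehicle replicate 1, 12 lower and 2 higher without MASM7 replicate 1 and 0 without either replicate 2 library. Nusap1, a spindle protein, fell from 78.1 and 88.3 CPM to 66.0 and 73.8 CPM, by about the same size in both pairs (log2 fold change -0.25, edgeR adjusted p = 0.00816). The kinesins Kif11 and Cenpe fell by 0.19 each (adjusted p = 0.0137 and 0.0174), Hmmr by 0.20 (adjusted p = 0.022) and the checkpoint kinase gene Bub1 by 0.18 (adjusted p = 0.025). In DNA replication 0 of 42 tested genes rose and 3 fell, Mcm6 of the replicative helicase by 0.17 (adjusted p = 0.0261), Ccne2 by 0.20 (adjusted p = 0.0395) and Pola1 by 0.16 (adjusted p = 0.0413), with a median of -0.022. None of the 3 was called with the offsets, at -0.14, -0.07 and -0.06. Of 28 tested histone genes none was called, with a median of -0.0080, H1f0 at -0.13 (adjusted p = 0.0859) and H3f3a at 0.15 (adjusted p = 0.117). With the offsets both were called, at -0.18 and 0.22. Most histone mRNAs lack a poly(A) tail, so their levels in these libraries are limited to what poly(A) selection retains. Ccne2 was at -0.32 without vehicle replicate 1, -0.084 without vehicle replicate 2 and -0.12 without MASM7 replicate 2. Bub1 was at -0.11 without vehicle replicate 2 and -0.11 without MASM7 replicate 2. Mcm6 was at -0.11 without vehicle replicate 1. Pola1 was at -0.10 and Cenpe at -0.11 without MASM7 replicate 2. Kif11 was at -0.13 and Hmmr at -0.099 without vehicle replicate 2.

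The remaining lists had at most 2 rises and 1 fall each, where 3.11% of all tested genes rose and 1.73% fell. Of 35 tested proteasome genes 2 rose, Psmb3 by 0.19 (adjusted p = 0.0158) and Psmb5 by 0.22 (adjusted p = 0.0276), with a median of 0.0092. With the offsets Psmb3 was still called at 0.18 and Psmb5 was at 0.15 (adjusted p = 0.145). Of 41 tested lysosomal and V-ATPase genes 1 fell, Lamp2 by 0.17 (adjusted p = 0.0235), with a median of 0.043, and it was at -0.06 with the offsets (adjusted p = 0.392). Autophagy and mitophagy genes had 0 calls among 38 tested and a median of -0.018, with Bnip3l, a mitophagy receptor, at -0.18 (adjusted p = 0.056) and Ulk2 at -0.21 (adjusted p = 0.0571). Of 28 tested apoptosis regulators 2 rose, the mitochondrial protease gene Htra2 by 0.19 (adjusted p = 0.0174) and Bok by 0.27 (adjusted p = 0.0468), and Xiap, an inhibitor of caspases, fell by 0.20 (adjusted p = 0.0214), with a median of -0.018. All 3 of these calls were lost with the offsets, which gave 0.05 for Htra2 (adjusted p = 0.596), 0.12 for Bok (adjusted p = 0.451) and -0.07 for Xiap (adjusted p = 0.4). Splicing factors had 0 calls among 40 tested and a median of -0.044, or 0.017 with the GC offsets, at a median GC content of 43%, with Ddx5 at -0.12 (adjusted p = 0.107) and Srsf1 at -0.12 (adjusted p = 0.116). Of 16 tested clock genes Nr1d1, the repressor REV-ERBα, rose by 0.26 (adjusted p = 0.0371), with a median of -0.010, and was at 0.16 with the offsets (adjusted p = 0.267). Among 26 tested calcium genes the receptor channel Itpr3 rose by 0.16 (adjusted p = 0.0281) and the sensor Stim2 fell by 0.19 (adjusted p = 0.0483), with a median of 0.044. Neither was called with the offsets, at 0.06 (adjusted p = 0.406) and -0.16 (adjusted p = 0.101). Of 19 tested snoRNA hosts and long noncoding RNAs 1 rose, Malat1, a nuclear RNA, from 347 and 340 CPM to 403 and 386 CPM (log2 fold change 0.20, edgeR adjusted p = 0.0144), with 0.29 under the offsets and a list median of -0.0096. Of 9 tested fibroblast markers 1 rose, Vim, vimentin, by 0.15 (adjusted p = 0.0488) and by 0.18 with the offsets. A negative fold change was seen for 4 of the 9, and 2 were higher in both pairs. The median of these markers was 0.024, or -0.0063 with the offsets. None of the 3 tested leukocyte markers was called. Xiap was at -0.32 without MASM7 replicate 1 and -0.094 without MASM7 replicate 2. Bok was at 0.16 without MASM7 replicate 2.

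**Figure D4:**
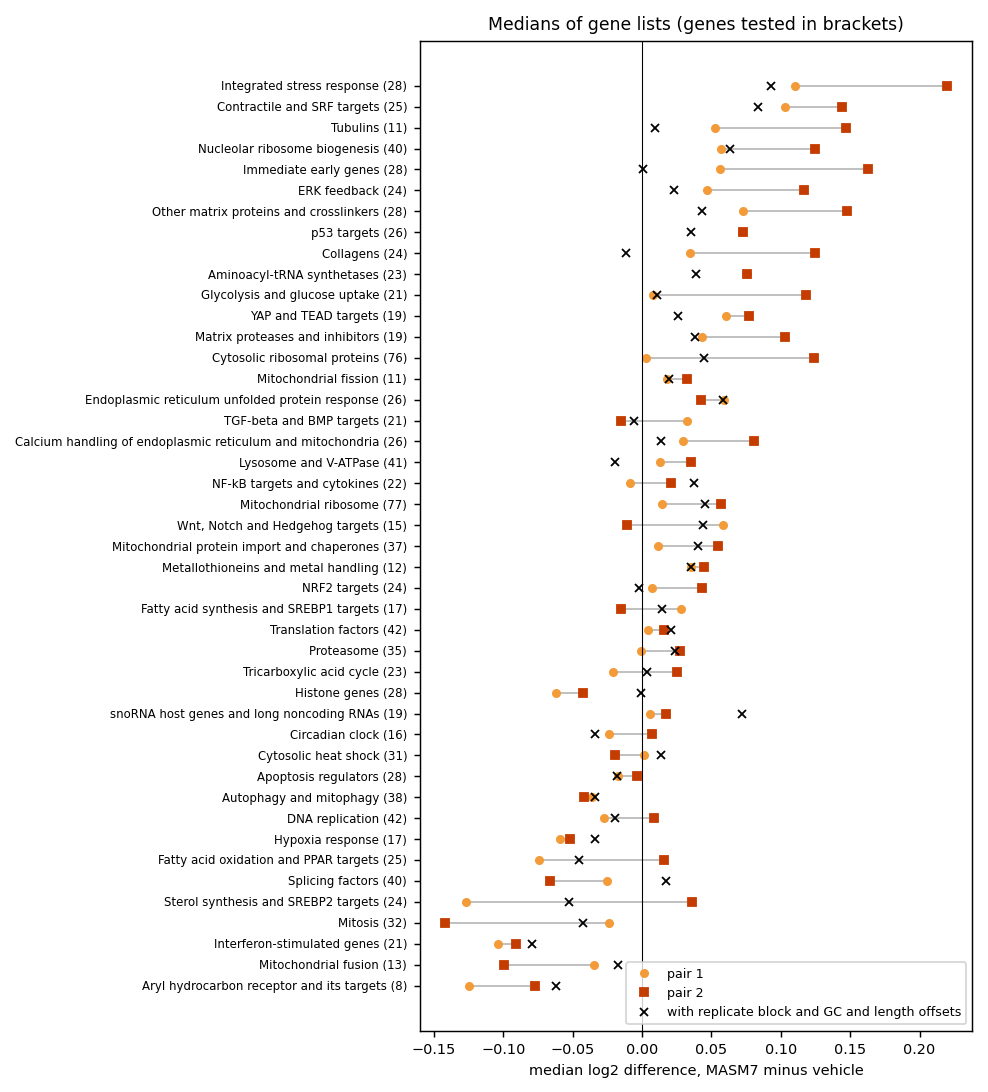
Median log2 difference between MASM7 and vehicle over the tested members of each gene list (number of members in brackets), in pair 1 (circles), in pair 2 (squares) and in the fit with the replicate block and GC offsets (crosses). The integrated stress response (0.11 and 0.22) and contractile genes (0.10 and 0.14) lie to the right in both pairs and interferon-stimulated genes (-0.10 and -0.091) to the left, while the circle and square of cytosolic ribosomal proteins stand at 0.0027 and 0.12.

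Unnamed gene models left aside, the 14 largest called rises with no overlap between the groups, at a mean of at least 1 CPM, were led by Cyp1a1. After it came Cacnb2, a β subunit of voltage-gated calcium channels, with 1.27 and 1.23 CPM with vehicle and 2.51 and 2.04 CPM with MASM7 (log2 fold change 0.85, edgeR adjusted p = 0.0432), which the fits without 1 library did not call. Tnnt2, cardiac troponin T, rose from 2.81 and 2.55 CPM to 3.93 and 4.74 CPM (log2 fold change 0.70, edgeR adjusted p = 0.0342), and neither was called with the GC offsets, where Cacnb2 was at 0.97 (adjusted p = 0.0504) and Tnnt2 at 0.67 (adjusted p = 0.0857). Rgs16, a GTPase-activating protein for G protein α subunits, had 11.5 and 8.6 CPM with vehicle and 16.1 and 14.8 CPM with MASM7, and rose by 55.2% (edgeR adjusted p = 0.00108). Acsbg1, an acyl-CoA synthetase of the bubblegum family, rose from 14.5 and 13.5 CPM to 19.6 and 22.7 CPM, by 51.2% (edgeR adjusted p = 0.000524), and both it and Rgs16 were called with the GC offsets, at 0.51 and 0.57 on the log2 scale. Tnnt2 was at 0.42 without vehicle replicate 2.

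Both Lce1h and Lce1g, late cornified envelope genes of a tandem family on chromosome 3 that keratinocytes are known for, rose. Lce1h had 3.6 and 5.17 CPM with vehicle and 5.42 and 8.45 CPM with MASM7, and Lce1g 24.1 and 24.8 CPM against 33.2 and 33.9 CPM (log2 fold change 0.46, edgeR adjusted p = 0.00101). Family members are alike in sequence, so reads may be shared between them, and epithelial markers stayed under 1 CPM in sum. The other rises of this kind were Nbeal2, needed for platelet granules (0.53), Ppdpf (0.43), Tmem143 (0.41), and, already named, Myl9, Chac1, Sdf2l1 and Col7a1. Of these 7, Col7a1 alone was called with the offsets, at 0.26, where Nbeal2 was at 0.40, Ppdpf at 0.30 and Tmem143 at 0.42 (adjusted p = 0.0504). Both Lce1 genes were called with them, Lce1h at 0.60 and Lce1g at 0.48.

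Of the 14 largest falls chosen in the same way, several were processed copies of other genes. By their names these were Rpl12-ps1, Mif-ps, Rpl7a-ps7, Rps26-ps1 and Rps24-ps3, and Rps27rt, a retrotransposed ribosomal gene, fell with them. Rpl12-ps1 went from 1.62 and 1.39 CPM to 0.848 and 0.428 CPM (log2 fold change -1.26, edgeR adjusted p = 0.0221), while Rpl12 itself stood at 0.01. Mif, encoding a cytokine, rose by 0.22 (adjusted p = 0.0088) where Mif-ps, its copy, fell by 0.98 (adjusted p = 0.0234), and Mif-ps had 2.72 and 6.25 CPM with vehicle, so its fall rested on vehicle replicate 2. The parents Rpl7a, Rps26, Rps27 and Rps24 stood at 0.09, -0.01, -0.12 and -0.04 and were not called. Of 1613 listed genes with names of this kind (ending in -ps with or without a number), 241 were tested, 1 rose and 10 fell. Over all tested genes 3.11% rose and 1.73% fell. The copies had a median log2 fold change of -0.18, at a median level of 1.84 CPM. In both pairs 134 copies were lower and 28 higher, where 32.1% of all tested genes were lower and 32.3% higher. Reads shared with the parents make these values uncertain. With the GC offsets Rpl12-ps1 was at -1.2, Mif-ps at -0.98, Rpl7a-ps7 at -0.87, Rps26-ps1 at -0.46 and Rps27rt at -0.34, and none of these copies, nor Rps24-ps3, was called. Bc1, a short noncoding RNA made by RNA polymerase III and best known from neurons, fell by 0.94 (adjusted p = 0.0162), but vehicle replicate 2 stood apart with 47.7 CPM against 21.2 CPM in vehicle replicate 1 and 18.3 and 17.7 CPM with MASM7, and without it the value was 0.053. With the offsets Bc1 was at -0.71 and was not called. Mif-ps was at -1.64 without vehicle replicate 1, -0.11 without vehicle replicate 2 and -0.51 without MASM7 replicate 2. Bc1 was at -1.70 without vehicle replicate 1 and 0.053 without vehicle replicate 2. Rpl7a-ps7 was at -1.45 without vehicle replicate 1 and -0.10 without vehicle replicate 2. Rps26-ps1 was at -0.92 without vehicle replicate 1 and -0.10 without vehicle replicate 2. Rps27rt was at -0.28 without vehicle replicate 2.

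The other falls were in coding genes. Ntn4, netrin 4, a laminin-binding matrix protein, had 7.51 and 5.77 CPM with vehicle and 4.51 and 3.65 CPM with MASM7, a log2 fold change of -0.70 (standard error 0.149, edgeR adjusted p = 0.0088) and of -0.73 with the GC offsets. Klf9, a transcription factor that glucocorticoids induce, fell from 16.3 and 20.1 CPM to 11.9 and 13.8 CPM, by 29.5% (edgeR adjusted p = 0.00211), with -0.46 in pair 1 and -0.54 in pair 2. Maf, a bZIP factor, fell from 36.4 and 30.7 CPM to 28.1 and 23.2 CPM, by 23.5% (edgeR adjusted p = 0.00259). All 3 were also called with the offsets, and each was lower in both MASM7 libraries than in either vehicle library. C1qtnf1, a secreted relative of complement C1q, went from 3.6 and 2.51 CPM to 1.97 and 1.58 CPM (log2 fold change -0.78, edgeR adjusted p = 0.0365). The others were Triqk (-0.77), Lrrc17, a secreted leucine-rich repeat protein (-0.49), and Nanos1, an RNA-binding regulator of translation (-0.44). With the offsets C1qtnf1 (-0.86) and Lrrc17 (-0.50) were called, and Triqk (-0.63) and Nanos1 (-0.44) were not.

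**Figure D5:**
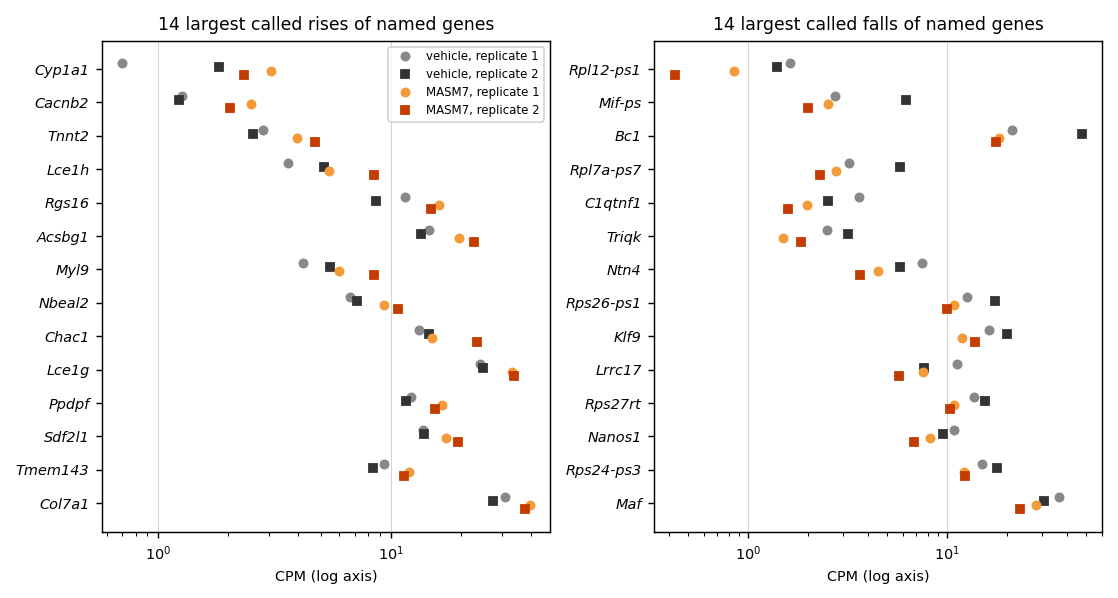
CPM on a log axis of the 14 largest called rises (left) and the 14 largest called falls (right) without overlap, at a mean of at least 1 CPM and with unnamed gene models left out, in each of the 4 libraries, where vehicle is grey or black, MASM7 orange or red, replicate 1 a circle and replicate 2 a square. Groups do not overlap by the choice of genes. The single high value of vehicle replicate 2 stands out for Bc1 (47.7 CPM) and Mif-ps (6.25 CPM).

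The genes with the smallest p in the fit without the block were mostly of moderate or high level and alike in both pairs. Higher with MASM7 were Acsbg1, Plaur, Dbn1, Mrtfa, Podnl1, a small leucine-rich proteoglycan, and Pcbp4, a poly(C)-binding protein. Podnl1 had 35.2 and 38.3 CPM with vehicle and 45.9 and 49.8 CPM with MASM7, with a log2 difference of 0.38 in each pair (edgeR adjusted p = 0.000796 with the block). Pcbp4 had 172 and 165 CPM with vehicle and 197 and 212 CPM with MASM7 (log2 fold change 0.28, edgeR adjusted p = 0.00109 with the block). Beside Tmem59, the lower ones were Marcks, an actin-binding substrate of protein kinase C, Slfn9, Mpp7, Appl1, an endosomal adaptor, and Crot, the peroxisomal carnitine octanoyltransferase. Marcks had 88.4 and 82.2 CPM with vehicle and 71.6 and 64.7 CPM with MASM7, and fell by 20.2% (edgeR adjusted p = 0.000962 with the block). Crot had 27.0 and 26.8 CPM with vehicle and 21.3 and 21.2 CPM with MASM7, with -0.34 in each pair (edgeR adjusted p = 0.0105 with the block). Slfn9 and Appl1 fell by 0.30 and 0.26 (adjusted p = 0.00485 and 0.00743), and Mpp7, a cell polarity scaffold, by 0.33 (adjusted p = 0.00823). With the offsets the calls of Mrtfa, Pcbp4 (0.12), Appl1 (-0.16) and Mpp7 (-0.22) were lost and those of the others kept. All 12 genes were separated between the groups, which the choice by small p favours, and without the block none had an adjusted p under 0.431.

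Some unnamed gene models, singled out after their values were seen, had large called changes. Gm43333 had 21 and 15 counts with vehicle and 510 and 538 counts with MASM7, a log2 fold change of 4.65 (edgeR adjusted p = 9.18e-06 with the block). With MFI8 it had 377 and 29 counts, so libraries of 1 treatment differed widely. Gm10557 had 151 and 155 counts with vehicle and 385 and 333 with MASM7 (log2 fold change 0.90), and Gm14398 had 46 and 62 against 20 and 11 (log2 fold change -2.11). Calls with opposite signs in the pairs rested on 1 library: Gm4691 had 169 counts in MASM7 replicate 1 and 10 to 17 in the other 3 libraries, Ubb-ps 539 counts in MASM7 replicate 1 against 111 to 149, and Rps15-ps2 319 counts in vehicle replicate 1 against 48 to 67.

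Outside the members, 173 genes had 10 or more counts in both MASM7 libraries and fewer than 10 in both vehicle libraries, and 45 genes had the reverse, where the MASM7 libraries were 1.26 times as deep. Unnamed gene models left aside, those with the most counts were Prss27, a membrane serine protease, with 8 and 9 counts with vehicle and 13 and 37 with MASM7, Mypopos with 9 and 8 against 21 and 23, and Ropn1l with 8 and 7 against 20 and 24. In the reverse group the gene other than unnamed models with the most counts was Hnrnpa1l2-ps, a processed copy, with 16 and 18 counts with vehicle and 5 and 8 with MASM7. It was followed by Cyp3a13 with 10 and 15 counts against 9 and 7, and by Rbp2 with 11 and 11 against 9 and 8. These are counts of low genes with no test.

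Other short motifs were counted in the same 9381 promoters, on both strands. The TATA box TATAAA was present in 6.68% of all promoters, 10.1% of those of genes that rose and 7.05% of those of genes that fell. The box CACGTG, read by MYC and by TFEB, was in 10.4%, 13.9% and 7.05% in the same order, the TEAD motif GGAATG in 11.6%, 14.8% and 9.62%, and the AP-1 motif TGANTCA in 4.63%, 6.94% and 4.49%. The antioxidant element TGACNNNGC went the other way, with 14.9%, 15.5% and 22.4%. The core GCGTG that the aryl hydrocarbon receptor reads was in 53.5%, 57.4% and 46.8%, which makes it too common to set genes apart. Shares were nearer to each other for CCAAT (39.5%, 36.3% and 40.4%), the ETS core CCGGAA (30.4%, 30.9% and 27.6%), the GC box GGGCGG (67.0%, 69.7% and 72.4%), the cyclic AMP element TGACGTCA (3.46%, 4.73% and 4.49%), the YY1 motif AAGATGGC (5.08%, 6.62% and 5.77%) and the NRF1 motif (2.23%, 2.52% and 2.56%). The ATF4 composite TGATGNAAT was in 0.416% and the heat shock element in 0.373% of all promoters and in 0 promoters of called genes. The loose SRF box, CC and GG with any 6 bases between, which includes the CArG box, was in 87.3%, 88.6% and 93.6%. The box TATAAA can lie within a CArG box. The promoters themselves had alike GC contents, with medians of 61.3% over all, 61.7% for genes that rose and 63.2% for genes that fell, unlike the transcripts.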

How the data were processed

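WT MEFs were profiled by RNA-seq of poly(A) RNA (TruSeq). According to their methods, the authors used Trimmomatic for trimming, STAR for alignment to mm10/GRCm38 and featureCounts for counts over exons. Strand setting and annotation release are not given in the sources used here, and overlapping genes on opposite strands cannot be told apart without the former. The raw counts per gene as deposited are the input here. The authors' TPM values, which were deposited too, served only as an alternative, and their normalized counts were not used. Counts of all 6 libraries, for genes with 10 or more counts in each of the 4 vehicle and MASM7 libraries, were fitted in edgeR 4.0.16 (R 4.3.3) with TMM and 1 coefficient per group, without and with the replicate number as a block (quasi-likelihood F test, Benjamini-Hochberg at 0.05). CPM used TMM factors, except that marker sums used library size, and within-pair log2 CPM added a prior count of 2. Standard errors were log2 fold change over the root of F. Scripts were tested on simulated counts. GC content, length and coordinates came from GENCODE vM21 (longest transcript per symbol), and offsets from lowess with a span of 0.3.

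Alternatives were DESeq2 size factors, library size alone, filterByExpr, no filter, only the 4 libraries compared, DESeq2 1.42.0, limma 3.58.1 on log2(TPM + 1), the offsets, and each library left out. Added after the data were seen were the same alternatives with the block for each named gene, calls per list under alternatives, and the strict CArG box. Members, lists and rules were chosen with earlier results of these data known. Named were the 14 largest called rises and falls without overlap at a mean of at least 1 CPM, the 6 higher and 6 lower genes of smallest p without the block, up to 5 called genes of smallest p per list (or 2 where none was called), Mfn1, Mfn2, and up to 3 genes in each direction outside the filter. Unnamed gene models and other exceptions are marked as chosen after their values were seen, as are Actg1, Cnn2, Rasa4 and Rpl10a (box), the tropomyosins, Cald1, Fhl2, Plat, Atf4, Trib3, Asns and the parents of processed copies. No list was tested as a set. A gene that is not reported here was left out of the lists and kept in the fits.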

Additional observations from a re-analysis of the deposited data

How the results depend on the processing

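Without the block, 0 genes were called with DESeq2 size factors, library size alone, filterByExpr, limma on log2(TPM + 1) or the GC and length offsets, 127 with no filter, 1 with only the 4 libraries compared, 2 by the DESeq2 Wald test and 0 to 2 with 1 library left out. The replicate block brought the count to 635, and the calls in the text rest on that choice. Differences between replicates 2 and 1 correlated between vehicle and MASM7 with Pearson's r of 0.264 over 13103 genes and 0.512 over the 6552 with the higher levels (0.226 and 0.638 between vehicle and MFI8, 0.222 and 0.547 between MASM7 and MFI8), a hint from the data that same-numbered libraries are related, since the labels give no pairing. Against the 635 calls with the block and 0 with no replicate block, DESeq2 called 187, limma on log2(TPM + 1) 0 (2123 genes at an unadjusted p under 0.05), the offsets 165, and fits with 1 library left out 13 to 1248. DESeq2 size factors (567), library size alone (612), filterByExpr (554), no filter (842) and only the 4 libraries (522) stayed within 1.5 times. The causes were not tested.

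Signs of single genes changed as follows. Without the block, the log2 fold change of Eno1 was -0.0109 with the offsets, and that of Mfn2 was -0.001 with library size alone, -0.007 with limma and -0.0431 with the offsets. With 1 library left out and no block, ranges were -0.338 to 0.002 for Scd2, -0.079 to 0.582 for Ndrg1, -0.0415 to 0.665 for Mt1, -0.0252 to 0.424 for Dusp5, -0.0653 to 0.46 for Ccn2, -0.172 to 0.539 for Ccn1, -0.0273 to 0.836 for Acta2, -0.207 to 0.788 for Col6a3, -0.0045 to 0.431 for Tnc, -0.138 to 0.341 for Csf1r and -0.0188 to 0.0397 for Mfn2. With the block, Eno1 had -0.0112 with the offsets, Mfn2 -0.0011 with library size alone, -0.007 with limma and -0.0431 with the offsets, and the ranges with 1 library left out were -1.7 to 0.0533 for Bc1, -0.0245 to 0.644 for Mt1, -0.0571 to 0.267 for Csf1r and -0.0159 to 0.0361 for Mfn2. Of the 157 genes taken by the rule on named genes and gene lists, the others kept their sign in the alternatives that gave them a value. Genes named outside that rule, such as the tropomyosins, Atf4, the parents of processed copies and the gene models, were not recomputed one by one. Genes under the minimum of 10 counts in a library were not tested, which is the limit that depth set.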
